A study of Mus musculus with 8 samples.

Results

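Mouse embryonic stem cells (mESCs) keep the capacity to form every tissue of the embryo through a small network of transcription factors, and the RNA and H3K27me3 of 10 genes of that network were described here: Pou5f1, Sox2, Nanog, Klf2, Klf4, Klf5, Esrrb, Tfcp2l1, Zfp42 and Tbx3. A gene was taken as the locus of the RNA-Seq count table whose most frequent gene name was one of these symbols, which gave 1 locus for each of the 10 genes among 44396 loci, and its H3K27me3 as every peak over the gene or within 5 kb of its 5′ end. The cells were mESCs carrying a green fluorescent protein reporter under the Oct4 (Pou5f1) promoter, grown without feeder cells on gelatine with LIF (leukaemia inhibitory factor) and inhibitors of MEK and GSK3. Control cells received the NaCl vehicle and treated cells 10 µM morphine, both for 24 h, with 2 RNA-Seq and 2 H3K27me3 ChIP-Seq libraries for each condition. The sources do not say whether the RNA libraries of a condition came from separate cultures, so the p-values measure the spread between these libraries, which may in part be technical.

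H3K27me3, the trimethylation of lysine 27 of histone H3, is deposited by the Polycomb Repressive Complex 2 (PRC2) and marks silenced or poised genes, often at CpG-rich promoters of developmental regulators. The pluripotency factors are active in mESCs and their promoters are then usually free of the mark. Pou5f1 and Sox2 bind DNA as partners, Nanog stabilizes the self-renewing state, and Klf2, Klf4, Klf5, Esrrb, Tfcp2l1 and Tbx3 pass the signals of LIF and of the inhibitors on to that core. Zfp42 (Rex1) is a zinc finger gene used as a marker of the naive state.

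The 4 RNA libraries held 25081266 to 29531096 counts, and all 10 genes passed the count filter that left 20350 loci for testing. The identity of the cells was read from markers in the same libraries. The summed level of 18 lineage genes was 82.5 to 90.1 CPM (counts brought to equal library sizes by TMM) in the control and 89.7 to 90.1 CPM after morphine, against 4637 to 4657 and 4725 to 4874 CPM for the 10 pluripotency genes. The 9 fibroblast and feeder markers summed to 28.9 to 30.03 CPM in the control and 28.5 to 30.5 CPM after morphine. The most abundant of these markers were Acta2, at 9.63 to 11.4 CPM, and Pdgfrb, at 7.17 to 8.10 CPM. The lowest were Dcn, at 0 counts in all 4 libraries, and Col3a1, at 0 in every library but morphine replicate 1. The lists of H3K27me3 peaks were 10305 and 13778 long in the control and 8681 and 12282 long after morphine.

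After morphine, H3K27me3 peaks were listed within 1 kb of the 5′ end at Pou5f1, Klf2 and Klf4 and not at Sox2 and Nanog. These peaks lay mostly downstream of the 5′ end, and that of Klf2 in morphine replicate 2 began 639 bp inside the gene. The sequences before the 5′ ends of these 5 genes are shown first, so most bases under the peaks are not in them. Each is the 250 bases before the RefSeq transcription start, read 5′ to 3′ on the strand of the gene in build GRCm38.p6, whose coordinates are those of mm10, with every CpG dinucleotide in capitals. RefSeq promoters were found for 8 of the 10 genes, those of Klf5 and Tbx3 being the missing ones. The Klf2 start in RefSeq lay 79 bp downstream of the 5′ end of its locus, and the other 4 starts were at the 5′ end itself.
Pou5f1 promoter, chr17:35505782-35506031, forward strand: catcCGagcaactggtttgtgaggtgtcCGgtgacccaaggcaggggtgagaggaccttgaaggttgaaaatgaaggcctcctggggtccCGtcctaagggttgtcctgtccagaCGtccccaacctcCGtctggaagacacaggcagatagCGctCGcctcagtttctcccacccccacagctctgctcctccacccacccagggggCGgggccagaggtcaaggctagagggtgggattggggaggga
Klf2 promoter, chr8:72318812-72319061, forward strand: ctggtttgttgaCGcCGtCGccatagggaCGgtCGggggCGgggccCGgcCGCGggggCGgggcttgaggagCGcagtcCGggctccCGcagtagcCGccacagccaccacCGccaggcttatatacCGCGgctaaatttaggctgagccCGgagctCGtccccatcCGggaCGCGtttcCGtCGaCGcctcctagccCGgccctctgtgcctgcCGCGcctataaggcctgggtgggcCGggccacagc
Klf4 promoter, chr4:55532476-55532725, reverse strand: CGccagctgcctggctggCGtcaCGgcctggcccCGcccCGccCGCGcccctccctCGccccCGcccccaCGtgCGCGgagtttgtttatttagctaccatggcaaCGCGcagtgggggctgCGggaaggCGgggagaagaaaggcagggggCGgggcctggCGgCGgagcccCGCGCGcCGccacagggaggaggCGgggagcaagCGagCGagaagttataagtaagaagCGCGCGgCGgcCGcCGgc
Sox2 promoter, chr3:34649745-34649994, forward strand: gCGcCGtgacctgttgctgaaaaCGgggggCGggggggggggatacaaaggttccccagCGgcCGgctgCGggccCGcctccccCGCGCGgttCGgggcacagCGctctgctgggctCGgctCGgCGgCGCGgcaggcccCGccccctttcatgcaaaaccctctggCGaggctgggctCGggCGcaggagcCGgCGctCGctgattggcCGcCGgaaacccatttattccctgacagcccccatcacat
Nanog promoter, chr6:122707239-122707488, forward strand: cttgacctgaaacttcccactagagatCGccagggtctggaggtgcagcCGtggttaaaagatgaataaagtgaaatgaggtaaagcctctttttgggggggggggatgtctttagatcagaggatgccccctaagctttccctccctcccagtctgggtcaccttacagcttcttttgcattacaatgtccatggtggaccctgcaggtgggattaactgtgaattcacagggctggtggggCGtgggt

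The Klf4, Klf2 and Sox2 promoters held 32, 29 and 27 CpGs, while those of Pou5f1 and Nanog held 8 and 3, against a median of 6 over all 32851 RefSeq promoters of this length. A few short motifs were searched on both strands, as a description of the letters only. CACCC, the core of the sites that KLF factors bind, occurred 5 times in the Pou5f1 promoter, 3 times in that of Zfp42, 2 times in that of Esrrb and 1 time in that of Klf2, and 52.0% of all promoters held it. The octamer bound by POU factors, ATTTGCAT, occurred in the promoter of Zfp42 alone among the 8 genes and in 1.6% of all promoters. Its shorter form TTTGCAT, which lies within it and was added after the sequences had been read, was also found at Sox2 and Nanog and in 4.12% of all promoters. The SOX motif CATTGTT (3.29% of all promoters) and the ESRRB motif AAGGTCA (4.08%) were found in none of the 8 promoters.

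The RNA levels of the 10 genes spanned more than an order of magnitude. Levels between genes are given per length, as RPKM (CPM divided by the exonic length of the locus in kb), over the 4 libraries. Pou5f1, the POU factor Oct4, was the highest, at 669 ± 34.3 RPKM (SD, n = 2) in the control and 785 ± 52.9 RPKM (SD, n = 2) after morphine, a mean over all libraries that lay above 99.9% of the tested loci. Nanog followed at a mean of 187 RPKM and Zfp42 at 178 RPKM, and the libraries of these neighbours overlapped. Esrrb, an orphan nuclear receptor, came next at 143 RPKM. Sox2 lay at 96.4 RPKM, Klf2 at 75.8 RPKM and Klf4 at 63.9 RPKM, each without overlap with the gene before or after it. The lowest levels were those of Klf5 at 52.5 RPKM, Tbx3 at 50.6 RPKM and Tfcp2l1 at 48.8 RPKM, which overlapped as neighbours. Even Tfcp2l1 lay above 92.1% of the tested loci.

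**Figure D1:**
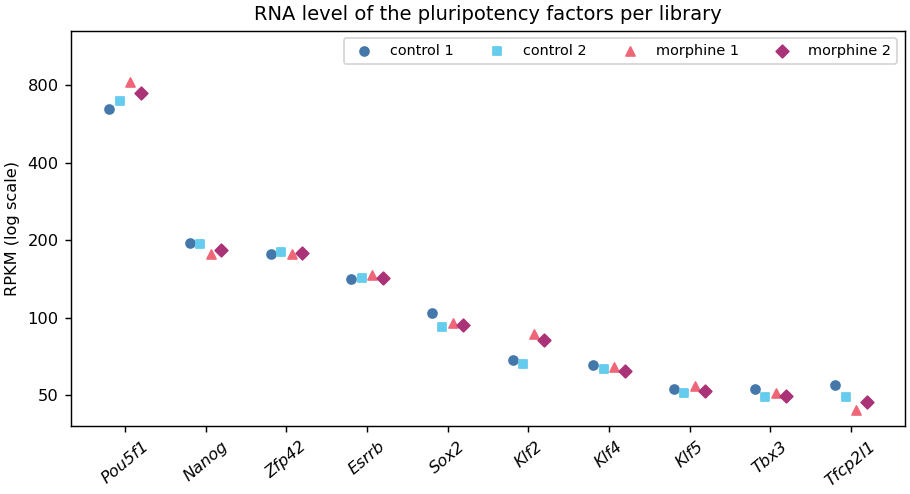
RNA level (RPKM, log axis) of the 10 genes in each of the 4 RNA-Seq libraries, ordered by the mean. Blue and cyan points are the control libraries, red and purple points those treated with morphine. Pou5f1 stood 3.88-fold above Nanog, and the range from Klf5 to Tfcp2l1 was narrow.

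The first comparison asked whether morphine changed the RNA of these genes. Klf2 rose, and none of the other 9 genes passed an FDR of 0.05 in edgeR's quasi-likelihood test over all loci. That is 1 of 10 genes called upregulated and 0 called downregulated, where 0.614% of the 20350 loci (125) were called upregulated and 0.904% (184) downregulated. This balance turned over with libraries scaled by total counts, where 281 loci were called upregulated and 234 downregulated. DESeq2 called 2 of the 10 genes upregulated and 1 downregulated, beside 3.25% and 5.02% of the 7330 loci to which it gave an adjusted p, and the edgeR exact test called 2 and 0, beside 1.58% and 2.3% of all tested loci. At an unadjusted p under 0.05, 4 of the 10 genes passed, beside 20.5% of all tested loci. The median log2 fold change of the 10 genes was -0.01, beside 0.00 over all tested loci. In bulk samples, fewer cells of a type and less RNA per cell cannot be told apart.

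Klf2 is a zinc finger factor of the Krüppel-like family that responds to MEK inhibition and sustains the naive state. It was read from chr8:72318983-72321654 on the forward strand, where the control libraries had 4080 and 4211 counts and the morphine libraries 4765 and 5025 counts. Its normalized levels were 149 and 143 CPM in control replicates 1 and 2 and 188 and 179 CPM in morphine replicates 1 and 2. Both morphine libraries thus lay above both control libraries. The means were 146 ± 3.87 and 183 ± 6.99 CPM (SD, n = 2 each), a 1.26-fold difference with a log2 fold change of 0.33 (standard error 0.05, FDR 0.0151 from edgeR's quasi-likelihood test). The call was lost without morphine replicate 1, where the log2 fold change was 0.29 and the FDR 0.205, and with the trend of each library's counts over locus length and GC content removed, where they were 0.12 and 0.135 in the same test.

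Pou5f1 was read from chr17:35506032-35510777 on the forward strand. Its levels were 1183 and 1272 CPM in the control and 1507 and 1370 CPM after morphine, again without overlap. The means were 1227 ± 62.9 and 1439 ± 97.0 CPM (SD, n = 2 each). The log2 fold change of 0.23 (standard error 0.05) lay just outside the threshold in edgeR's quasi-likelihood test (FDR 0.0525). The edgeR exact test gave an FDR of 0.0308 and DESeq2 one of 0.00347. Leaving out a library leaves a single one in its condition, so only the log2 fold change is given for those fits. For Pou5f1 it was 0.29 without control replicate 2 and 0.30 without morphine replicate 2. It was 0.17 without control replicate 1 and 0.16 without morphine replicate 1. An antisense gene of GENCODE, Gm19553, overlaps Pou5f1, and whether the counting used strand is not given in the sources used here.

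Tfcp2l1, a grainyhead-like factor downstream of LIF and of GSK3 inhibition, and Nanog, a homeobox factor, had the lowest log2 fold changes. Tfcp2l1 (chr1:118627945-118685168, forward strand) had 524 and 472 CPM in the control and 420 and 451 CPM after morphine. Both morphine values were the lower ones, with a log2 fold change of -0.19 (standard error 0.06, FDR 0.088 from edgeR's quasi-likelihood test). DESeq2 gave an adjusted p of 0.0292. The log2 fold change of Tfcp2l1 was -0.26 without control replicate 2 and -0.24 without morphine replicate 2. It was -0.12 without control replicate 1 and -0.14 without morphine replicate 1. With the length and GC trend removed it was -0.09 (FDR 0.219 from edgeR's quasi-likelihood test). Nanog (chr6:122707489-122714633, forward strand) had 439 and 434 CPM in the control and 396 and 410 CPM after morphine. Its libraries did not overlap either, and its log2 fold change was -0.12 (standard error 0.04, FDR 0.158 from the same edgeR test). Non-overlap was common in these libraries: 26.0% of all tested loci had both morphine values above both control values and 26.8% had both below, and 73.3% of the 2610 loci with a mean of at least 100 CPM did not overlap in one direction or the other.

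The remaining 6 genes had overlapping libraries and fitted log2 fold changes between -0.05 and 0.04. Esrrb (chr12:86361117-86521628, forward strand) had 819 and 829 CPM in the control and 847 and 826 CPM after morphine. Zfp42 (chr8:43295067-43307009, reverse strand) varied least, with 607 and 616 CPM in the control and 609 and 610 CPM after morphine. Sox2, the high-mobility-group partner of Pou5f1, had 257 and 227 CPM in the control and 235 and 232 CPM after morphine. It lies at chr3:34649995-34652461 inside the locus of the long transcript Sox2ot on the same strand, so its counts are less certain.

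Klf4, a target gene of STAT3 that encodes a reprogramming factor, had 208 and 200 CPM in the control and 203 and 197 CPM after morphine (chr4:55527137-55532475, reverse strand). Klf5 (chr14:99298691-99313412, forward strand) had 189 and 182 CPM in the control and 195 and 186 CPM after morphine. Tbx3, a T-box factor, had 283 and 262 CPM in the control and 272 and 265 CPM after morphine (chr5:119669773-119684724, forward strand). For these 6 genes the FDR from edgeR's quasi-likelihood test was between 0.665 and 0.961. The standard errors of these fold changes were 0.04 to 0.06 on the log2 scale. Esrrb overlaps 2 unnamed loci of the table, and an antisense gene of GENCODE (Tbx3os1) overlaps Tbx3.

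**Figure D2:**
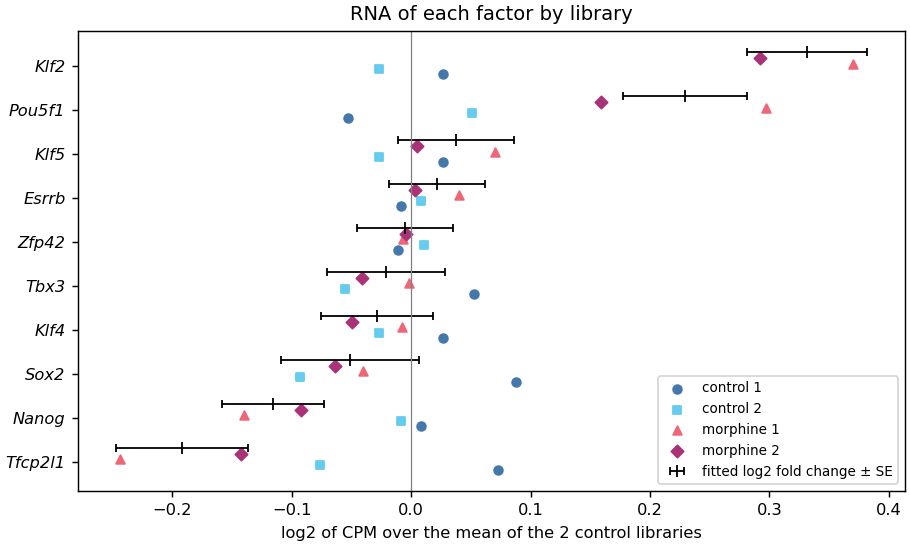
RNA of each gene in the 4 libraries as the log2 of its CPM over the mean of both control libraries (points), with the fitted log2 fold change of morphine over control and its standard error (black bars). The morphine points of Klf2 and Pou5f1 lay to the right of both control points, and those of Nanog and Tfcp2l1 to the left.

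The log2 fold changes of the 10 genes ranked with the base composition of their transcripts. Across all 16662 tested loci with a GC value the log2 fold change rose with the GC content of the exons (Spearman's correlation across genes 0.52), and across the 10 genes the same correlation was 0.68. Both are descriptions, since the genes share the same 4 libraries and are not independent replicates. Klf2 (61.6% GC) and Pou5f1 (57.6% GC) were the most GC-rich of the 10, and Nanog (45.8% GC), Zfp42 (46.4% GC) and Tfcp2l1 (47.0% GC) the least. The 374 tested loci within 1 percentage point of the GC content of Klf2 had a median log2 fold change of 0.18, and 4.28% of them were called upregulated. With a trend of locus length and GC taken out of every library, the log2 fold change of Klf2 was 0.12 (FDR 0.135, edgeR's quasi-likelihood test) and that of Pou5f1 0.06 (FDR 0.345 from the same test), and none of the 10 genes was called, where 1.06% of those loci (177) were called upregulated and 0.834% (139) downregulated. Over the same 16662 loci with no trend removed, Klf2 had 0.33 (FDR 0.00287 from the same test). The part of GC content in the difference between the conditions was not tested further.

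**Figure D3:**
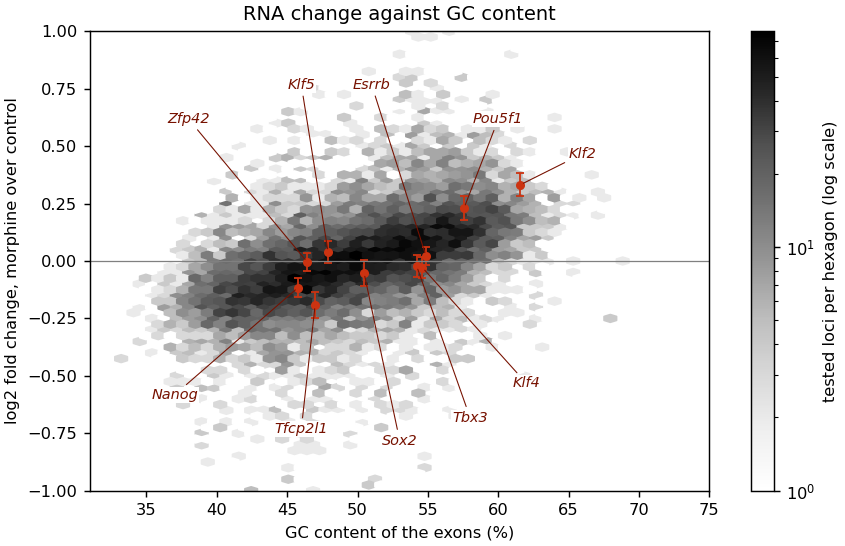
Log2 fold change of morphine over control against the GC content of the exons (%), for all tested loci with a GC value (grey hexagons, darker where more loci fall, log scale; loci beyond 1 on either side are not drawn) and for the 10 genes (red points with standard errors). Klf2 and Pou5f1 lay at the GC-rich end, where the grey cloud was also above 0.

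The second comparison asked whether H3K27me3 at these genes differed between the conditions. In either control library no gene had a peak within 1 kb of its 5′ end, where 18.8% and 18.9% of all tested loci had one. In both morphine libraries the same 4 genes, Pou5f1, Klf2, Klf4 and Klf5, had one, beside 19.4% and 19.9% of all tested loci. A peak of this kind, in both morphine and neither control library, was found at 1.18% of the 18179 tested loci with a known strand and at 1.31% of the 2589 of them with a mean of at least 100 CPM, beside 4 of the 10 genes here. With peaks of a score of at least 100 alone, 2 genes had it, Klf2 and Klf5. The reverse pattern was found at none of the 10 genes, beside 0.704% of the tested loci and 0.193% of those with at least 100 CPM, and a 5′ peak in all 4 libraries was found at none of the genes, beside 13.4% of the tested loci. Over the wider window of the gene and 5 kb on either side of its 5′ end, each control library had a peak at 3 genes (30.3% and 32.1% of all tested loci) and each morphine library at 6 genes (29.1% and 32.0%). This difference of 3 genes reached the smallest p that 2 libraries against 2 allow (two-sided exact permutation test, p = 0.33). Within this window Pou5f1, Klf2 and Klf5 had a peak in both morphine and neither control library, a pattern of 1.11% of the tested loci. Sox2 and Klf4 had a peak in all 4 libraries, as 22.0% of the tested loci did, and 0 genes had one in both control and neither morphine library, beside 1.38%. Only the positions and scores of peaks were compared, so a gene without a listed peak may still carry the mark below the threshold of the caller.

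**Figure D4:**
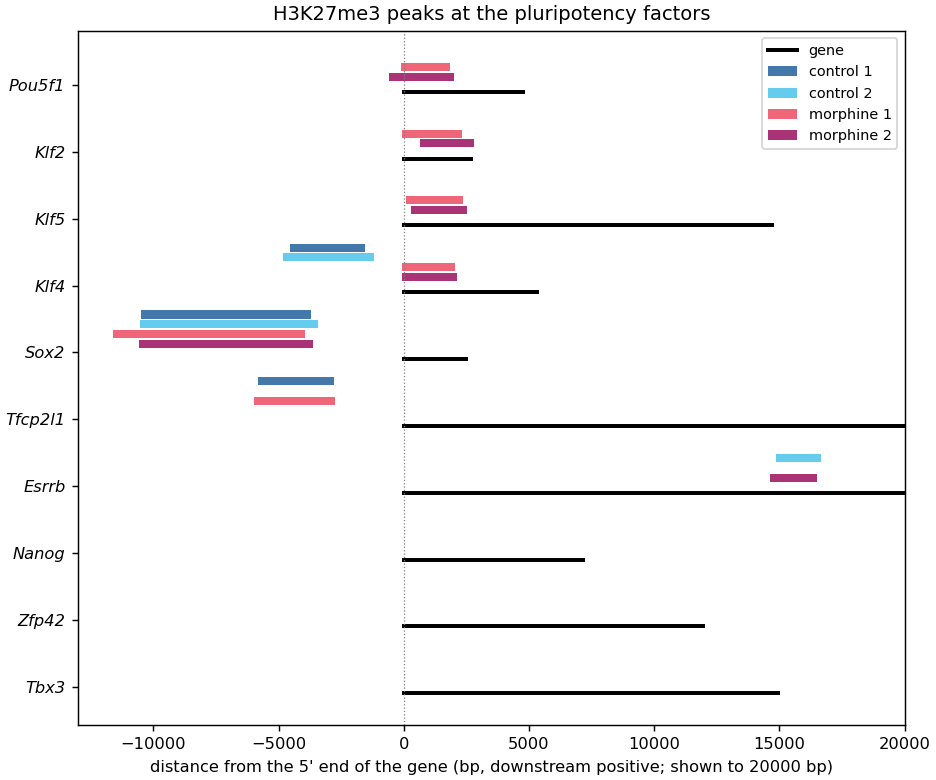
H3K27me3 peaks at the 10 genes in the 4 ChIP-Seq libraries, against the distance from the 5′ end of each gene in bp with downstream positive. Black lines are the genes, drawn to 20000 bp, and coloured bars the peaks. At Pou5f1, Klf2, Klf5 and Klf4 the morphine peaks covered the start of the gene or began within 1 kb of it, where no control peak lay. A second Esrrb peak of morphine replicate 2 lay beyond the axis.

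At Pou5f1 the peak of morphine replicate 1 began 118 bp before the 5′ end and ended 1839 bp after it (chr17:35505914-35507871, score 93.63). That of morphine replicate 2 began 570 bp before and ended 1988 bp after it (chr17:35505462-35508020, score 188.19). The score is -10 times the log10 of the p-value given by MACS, and ranks peaks within a library only. In its own library, 41.7% of the peaks of replicate 1 and 11.03% of those of replicate 2 scored higher. The nearest control peaks lay 32648 and 32594 bp from the 5′ end. The 1958 bp covered in both morphine libraries held 384 bp of coding sequence, 82 bp of untranslated region and 1388 bp of intron. The reporter of these cells carries an Oct4 promoter of its own, whose length is not given in the sources used here, and the part of reads from that copy in the peak was not tested.

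At Klf2 the peak of morphine replicate 1 began 78 bp before the 5′ end and ended 2318 bp after it (chr8:72318905-72321301, score 131.21). That of morphine replicate 2 started 639 bp inside the gene and ended at 2817 bp, past its 3′ end (chr8:72319622-72321800, score 123.43). Between them they covered the gene from end to end. The nearest control peaks were 101053 and 183417 bp away. Klf2, the gene whose RNA rose, was thus among the 4 with a peak at the 5′ end after morphine only.

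At Klf5 the peaks lay just inside the gene, from 106 to 2364 bp in morphine replicate 1 (chr14:99298797-99301055, score 147.58) and from 289 to 2522 bp in morphine replicate 2 (chr14:99298980-99301213, score 258.22). Only 4.85% of the peaks of morphine replicate 2 scored higher. The nearest control peaks lay 17192 and 17079 bp from the 5′ end. Of the 2076 shared bases, 1833 were intronic.

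Klf4 had peaks in all 4 libraries, but at different places. In the control they lay upstream, from 4526 to 1562 bp before the 5′ end in replicate 1 (chr4:55534037-55537001, score 71.95) and from 4811 to 1187 bp before it in replicate 2 (chr4:55533662-55537286, score 149.02). In the morphine libraries they covered the start and the first part of the gene, from 64 bp before the 5′ end to 2026 bp after it in replicate 1 (chr4:55530449-55532539, score 85.66) and to 2136 bp after it in replicate 2 (chr4:55530339-55532539, score 91.76). The control and the morphine peaks did not overlap, and no upstream peak was listed after morphine within 5 kb. They covered 28.7% and 35.1% of the window in the control and 20.2% and 21.3% after morphine.

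The bases under the 4 peaks are shown by the most CpG-rich 200 bases that lie in the part covered in both morphine libraries and outside untranslated regions, with CpGs in capitals. They were chosen for their CpGs, so their number of CpGs is not a finding. Those of Pou5f1 and Klf2 are coding sequence and those of Klf4 and Klf5 are intronic.
Pou5f1, chr17:35506249-35506448, forward strand, coding: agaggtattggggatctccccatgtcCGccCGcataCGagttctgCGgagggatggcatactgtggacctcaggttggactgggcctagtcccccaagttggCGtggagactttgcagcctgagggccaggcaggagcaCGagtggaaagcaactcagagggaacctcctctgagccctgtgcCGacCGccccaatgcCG
Klf2, chr8:72319835-72320034, forward strand, coding: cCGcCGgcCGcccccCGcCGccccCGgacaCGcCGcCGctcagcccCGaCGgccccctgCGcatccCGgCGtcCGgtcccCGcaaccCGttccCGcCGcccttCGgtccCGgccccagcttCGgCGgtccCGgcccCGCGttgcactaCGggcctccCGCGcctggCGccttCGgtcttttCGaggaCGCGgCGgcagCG
Klf4, chr4:55531304-55531503, reverse strand, intron: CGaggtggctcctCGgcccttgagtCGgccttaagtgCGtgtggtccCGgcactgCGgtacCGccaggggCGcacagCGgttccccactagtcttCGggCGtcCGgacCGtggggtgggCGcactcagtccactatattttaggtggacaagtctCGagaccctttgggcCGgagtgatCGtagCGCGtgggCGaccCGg
Klf5, chr14:99299245-99299444, forward strand, intron: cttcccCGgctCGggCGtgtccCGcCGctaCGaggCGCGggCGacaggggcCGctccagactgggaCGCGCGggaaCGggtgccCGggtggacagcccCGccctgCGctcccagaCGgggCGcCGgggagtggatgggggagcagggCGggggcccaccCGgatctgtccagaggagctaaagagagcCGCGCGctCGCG

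Sox2 had a peak upstream in every library, which overlapped the locus of Sox2ot. It began 10480 and 10538 bp before the 5′ end in the control and 11605 and 10557 bp before it after morphine, and ended 3690 and 3423 bp before it in the control and 3959 and 3616 bp before it after morphine. Its control peaks scored 105.15 and 83.53 and its morphine peaks 54.08 and 89.72, the lowest being that of morphine replicate 1, in which 91.4% of the peaks scored higher. Tfcp2l1 had an upstream peak in the first replicate of each condition, which ended 2780 bp before the 5′ end in the control and 2757 bp before it after morphine. Esrrb had an intragenic peak in the second replicate of each condition, from 14871 to 16667 bp inside the gene in the control and from 14608 to 16519 bp after morphine, and a second one in morphine replicate 2. None of these 3 genes had a peak in both libraries of 1 condition and neither of the other.

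Nanog, Zfp42 and Tbx3 had no peak in the window in any library. The nearest peaks lay 83048 to 84060 bp from the 5′ end of Nanog and 90492 to 296369 bp from that of Zfp42. At Tbx3 the nearest peaks lay 26044 and 25945 bp away in the control and 35482 and 37166 bp away after morphine.

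The 4 genes with a peak at the 5′ end after morphine did not share a high CpG content. Within 500 bp of the 5′ end, Klf4 had 116 CpGs, Klf5 102 and Klf2 72, above the median of 55 over 18157 tested loci, while Pou5f1 had 30, more than only 27.1% of those loci. Sox2, with 84 CpGs, had no such peak. The other genes had 52 (Tfcp2l1), 46 (Tbx3), 28 (Zfp42), 23 (Esrrb) and 18 (Nanog). The 214 tested loci with this pattern of peaks had a median of 68.5 CpGs, against 55 at the others. Their median log2 fold change was 0.03, and 1 of them was called upregulated (Klf2) and 3 downregulated. The 17965 other loci had a median of 0.00, with 117 called upregulated and 168 downregulated, so the share called was near the background in both directions.

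**Figure D5:**
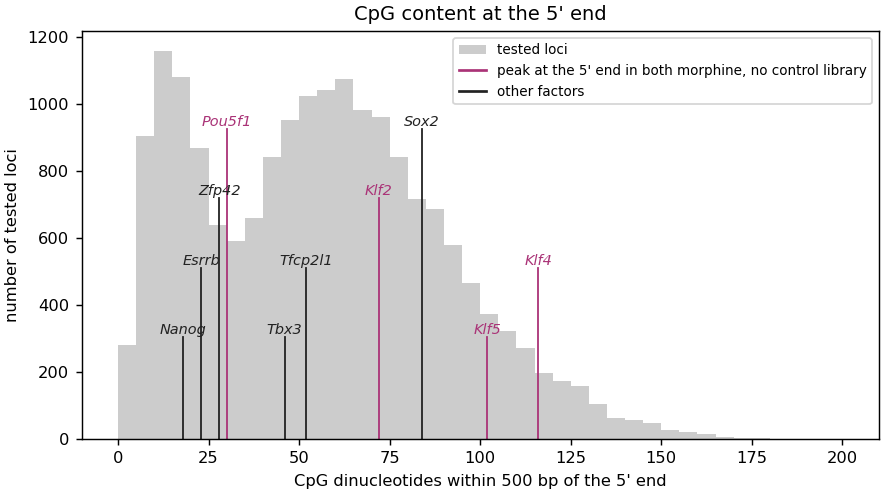
CpG dinucleotides within 500 bp of the 5′ end for all tested loci (grey histogram, number of loci) and for the 10 genes (vertical lines, whose heights carry no value). Purple lines are the 4 genes with a peak there in both morphine and neither control library: 3 lie to the right of the median of 55, and Pou5f1 lies to the left.

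Of these 4 genes, Klf2 rose (not called with the length and GC trend removed), the log2 fold change of Pou5f1 was positive at an FDR of 0.0525, and those of Klf5 and Klf4 were 0.04 and -0.03, with FDRs of 0.715 and 0.785 from edgeR's quasi-likelihood test. Of the 17 KLF genes, 16 were tested and Klf2 alone was called (0.614% of all tested loci were called upregulated), with 2 at an unadjusted p under 0.05 (20.5%). Klf2, Klf4 and Klf5 were the only KLF genes with a 5′ peak in both morphine and neither control library. Of 20 relatives of the POU, SOX, T-box, ESRR, TFCP2 and YY1 families, 15 were tested and 0 were called by edgeR's quasi-likelihood test, with 4 at an unadjusted p under 0.05 (20.5% of all tested loci), 0 by DESeq2 of the 4 with an adjusted p and 1 upregulated by the edgeR exact test (1.58% of all loci), and none had that pattern of peaks. With the length and GC trend removed 1 of these 15 was called upregulated (1.06% of all loci in that fit) by edgeR's quasi-likelihood test, Esrra (0.30, FDR 0.0336), named after its value was seen.

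Of the wider pluripotency network, 24 genes were listed and tested, 2 fell and 0 rose (0.904% and 0.614% of all tested loci), and the median log2 fold change was -0.03. At an unadjusted p under 0.05, 11 of the 24 passed, beside 20.5% of all tested loci. The edgeR exact test called 2 genes in each direction and DESeq2 called 3 upregulated and 1 downregulated of the 23 with an adjusted p, where the exact test called 1.58% and 2.3% of all loci and DESeq2 3.25% and 5.02%. Tet1, a 5-methylcytosine dioxygenase, had 725 and 630 CPM in the control and 490 and 569 CPM after morphine (log2 fold change -0.36, standard error 0.07, FDR 0.0423 from edgeR's quasi-likelihood test). Rif1, which acts in replication timing and telomere biology, had 508 and 470 CPM in the control and 371 and 426 CPM after morphine (-0.29, standard error 0.06, FDR 0.0474 from the same test). DESeq2 called neither, with log2 fold changes of -0.36 and -0.29 (adjusted p = 0.105 and 0.0783). Without morphine replicate 1 the log2 fold changes were smaller, at -0.25 and -0.20. With the length and GC trend removed, Tet1 had -0.18 (FDR 0.0327 from edgeR's quasi-likelihood test) and Rif1 lost its call (-0.09). None of the 24 genes had a 5′ peak in both morphine and neither control library.

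Of 9 genes of the LIF and STAT3 pathway, 1 fell and 1 rose (0.904% and 0.614% of all tested loci), and 5 passed an unadjusted p under 0.05 (20.5% of all tested loci). Lifr, the LIF receptor, had 138 and 117 CPM in the control and 91.2 and 92.2 CPM after morphine, a fall of 0.47 on the log2 scale (log2 fold change -0.47, standard error 0.07, FDR 0.0133 from edgeR's quasi-likelihood test). It was called under every alternative but the one without morphine replicate 1, where the log2 fold change was -0.46 (FDR 0.187) and 13 loci in all were called. Myc had 47.3 and 47.3 CPM in the control and 57.6 and 55.5 CPM after morphine (0.26, standard error 0.06), at the threshold with an FDR of 0.05 from the same test. With the length and GC trend removed its log2 fold change was 0.17 (FDR 0.0952). Its call was also lost in that test without control replicate 1 (0.25, FDR 0.11), morphine replicate 1 (0.23, FDR 0.405) or morphine replicate 2 (0.29, FDR 0.0548), with a log2 fold change near that of all 4 libraries each time.

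Of 12 targets of ERK signalling, which the MEK inhibitor blocks, 1 rose (0.614% of all tested loci), and 4 passed an unadjusted p under 0.05 (20.5%). Etv4 had 181 and 185 CPM in the control and 216 and 209 CPM after morphine (log2 fold change 0.22, standard error 0.05, FDR 0.0476 from edgeR's quasi-likelihood test), and 0.09 with the length and GC trend removed (FDR 0.219). Its call was also lost without the same 3 libraries (0.19, 0.19 and 0.24, with FDRs of 0.132, 0.405 and 0.0533). Of 11 targets of WNT signalling, which the GSK3 inhibitor mimics, 7 were tested and 0 were called by edgeR's quasi-likelihood test, with 1 at an unadjusted p under 0.05 (20.5% of all tested loci), 0 by DESeq2 of the 3 with an adjusted p and 1 upregulated by the edgeR exact test (1.58% of all loci). Tcf7l1 and Tcf7, the most abundant, had log2 fold changes of 0.02 and 0.05. With the length and GC trend removed Tcf7l1 was called downregulated (-0.16, FDR 0.0359 from edgeR's quasi-likelihood test), as were 0.834% of all loci in that fit.

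No gene of the primed or formative state was called among 10 tested by edgeR's quasi-likelihood test, with 3 at an unadjusted p under 0.05 (20.5% of all tested loci). Dnmt3b, a de novo DNA methyltransferase, had 69.6 and 70.3 CPM in the control and 72.8 and 72.0 CPM after morphine, and Lin28b had a log2 fold change of -0.16. Of the 18 lineage genes 12 were tested and 0 were called, also at an unadjusted p under 0.05 by the same test. The most abundant of them, Nes and Tfap2c, had 22.3 to 25.4 CPM and 15.1 to 16.9 CPM over the 4 libraries. Of the 9 fibroblast markers, 5 were tested and 0 were called, with 0 at an unadjusted p under 0.05, and Acta2 and Pdgfrb were the most abundant at 9.63 to 11.4 CPM and 7.17 to 8.10 CPM. The edgeR exact and likelihood ratio tests and the fit without a count filter called 0 of the primed, lineage and fibroblast genes, and DESeq2 called 0 of the 3 primed and 1 lineage genes to which it gave an adjusted p. With the length and GC trend removed 1 primed or formative gene was called downregulated (0.834% of all loci in that fit) by edgeR's quasi-likelihood test, Zic2 (-0.31, FDR 0.0398), named after its value was seen.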

How the data were processed

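RNA-Seq (poly(A) RNA, stranded libraries) and H3K27me3 ChIP-Seq were each made from 2 control and 2 morphine-treated samples of mESCs, grouped by their labels. RNA reads were mapped by the authors to mm10 with HISAT2 (2.1.0). They assembled loci with StringTie (1.3.6) and counted reads with featureCounts (1.6.4), and the deposited values are raw counts of 44396 loci, 40846 of them named. For ChIP-Seq, the authors aligned reads with Bowtie2 (2.3.5.1) and called peaks per library with MACS at a p-value of 1e-05, and the deposited score is -10 times the log10 of the p-value of the peak. The control library used by MACS, how reads with several alignments were treated and the use of strand in counting are not given in the sources used here.

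Counts were filtered with filterByExpr, scaled by TMM and, with edgeR 4.0.16 in R 4.3.3, put through its quasi-likelihood test, with Benjamini-Hochberg adjustment over the 20350 loci tested. The standard error of a log2 fold change is its absolute value divided by the square root of the F statistic of that test. CPM are on TMM library sizes, and RPKM are CPM per kb of exons. In the table of a gene list, a symbol with several loci was read from the one with the most counts. The test was tried on simulated counts before use. DESeq2 (1.42.0), other edgeR tests, RLE and total-count scaling, other count filters, a length and GC trend (natural spline, 5 degrees of freedom, 31139 loci with a GENCODE vM21 sequence) and leaving out each library were alternatives. Leaving out an RNA library left a single one in its condition, so those fits took their spread from the other condition alone. A peak belonged to a gene if it overlapped the gene or the 5 kb on either side of its 5′ end by at least 1 bp. Presence could be set for tested loci with a strand. Sequences came from RefSeq and GRCm38.p6, exon and intron labels from GENCODE vM21. The 10 genes and the gene lists were chosen with earlier results of these data known. Named from each list were the genes with an FDR of 0.05 or less or, where none was, the 2 most abundant, with some exceptions. Dcn and Col3a1 were named as the fibroblast markers with the lowest counts, and Esrra and Zic2 after their values were seen. The 2 most abundant of the POU, SOX and T-box relatives were not named. The count of peaks within 1 kb of a 5′ end, in both morphine and neither control library, was added after the data were seen, as was the fit of the loci with a GC value but no trend removed. Immunoblots and qPCR were not analysed.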

Additional observations from a re-analysis of the deposited data

How the results depend on the processing

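The 309 called loci became 790 with the edgeR exact test, 840 with the likelihood ratio test, 606 with DESeq2 (of the 7330 with an adjusted p), 515 with total counts (281 up), 1657 without a count filter, 702 with the trend removed and the replicate block, 991 over the loci with a GC value and no trend removed, and 13 to 1619 with each library left out, the lowest without morphine replicate 1 and the highest without control replicate 2. Of the 10 pluripotency genes, 2 were called by the exact test, the likelihood ratio test and total counts, 3 by DESeq2, without a count filter and over the loci with a GC value, and 0 with the trend removed, against 1 (Klf2) in the test as reported. With each library left out the number was 0 to 3, 0 without morphine replicate 1 and 3 without control replicate 2. In the other lists together, the test as reported called 5 of the 105 genes tested, beside 309 of the 20350 loci. The exact test and the likelihood ratio test each called 10 of the 105, and total counts 9, beside 790, 840 and 515 loci. Without a count filter 19 of 124 genes were called, beside 1657 of 30482 loci. Over the loci with a GC value 14 of 105 were called, beside 991 of 16662 loci. With the trend removed and the replicate block 9 were called, beside 702 of 16662 loci.

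Across loci, the deviations of control replicate 1 and of morphine replicate 1 from their group means had a correlation of 0.0264. The replicate numbers were therefore not taken as a pairing. With the replicate block 1128 of the 20350 loci, 3 of the 10 genes (Klf2, Pou5f1 and Tfcp2l1) and 11 of the 105 genes of the other lists were called. Klf2 kept its direction under all 15 alternatives (log2 fold change 0.12 to 0.37). It was not called at 0.1204 with the trend removed, at 0.1209 with the trend and the replicate block (FDR 0.0629), or without morphine replicate 1, and its range with each library left out was 0.2922 to 0.3706. Pou5f1 was called under 9 of 15 alternatives and Tfcp2l1 under 5, both without a change of direction, and Klf4 under 1, the trend with the replicate block (-0.13, FDR 0.0353).

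Values near 0 changed sign in 4 genes. Esrrb was -0.0417 with the trend removed, also with the block. Zfp42 was 0.0146 with total counts, 0.0453 with the trend removed and 0.0452 with the trend and the block, and -0.0201 to 0.0117 with each library left out. Sox2 ran from -0.133 to 0.0373 and Tbx3 from -0.0679 to 0.0296 with each library left out, positive without control replicate 1. The cause of these shifts was not tested.

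With peaks of a score of at least 100, the genes with a peak in both control libraries fell from 2 to 0, those with one in both morphine libraries were 2, and those with a 5′ peak in both morphine and neither control library were 2 (Klf2 and Klf5). Over the gene body alone, and within 1 kb of the 5′ end alone, 0 genes had a peak in both controls. The equal number of strongest peaks, an overlap of 200 bp and leaving out any library kept Pou5f1, Klf2, Klf4 and Klf5 as the 4 genes with a 5′ peak after morphine only. The reads behind each peak limit this count, since a peak just under the threshold is not listed.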
